A study of Caenorhabditis elegans with 2 samples.

Results

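The sperm genes of Caenorhabditis elegans described here are 91 of the 46739 genes of the count table. They were taken by symbol: 35 major sperm protein genes (msp), 18 genes of the sperm-specific families ssp, ssq and sss, 22 spe and fer genes, 12 nspd genes, and gsp-3, gsp-4, snf-10 and peel-1. In a hermaphrodite, germ cells first form sperm during larval life and then switch to oocytes, and the sperm are stored in the spermatheca of the adult. Major sperm protein builds the filaments on which a nematode sperm crawls, and outside the cell it acts as a signal that starts oocyte maturation. The spe and fer genes were found through mutants with defective sperm. They act in making the spermatid, turning it into a crawling sperm, or meeting the oocyte.

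The YBT7 strain carries the alleles linc-20(huj2) and deg-1(huj32) and the rearrangement hujCf1, an X chromosome cut by Cas9 into a linear segment and an internal segment that is probably circular. It is a single outcrossed line. The wild type (WT) is N2, with an intact X chromosome. Both were adult hermaphrodites a day after the last larval stage, and the RNA of hand-dissected gonads gave 1 library a strain. The RNA came from whole gonads, so fewer sperm, less RNA per sperm and less sperm-holding tissue in the preparation cannot be told apart here. Since each strain has 1 library, the spread between gonad preparations is unknown and no test was run.

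The libraries held 4525439 counts for YBT7 and 2873065 for WT. The source label of the YBT7 library also carries the words wild type. Of the genes cut or deleted in the strain, linc-20 had 0 counts in YBT7 and 4 in WT (upper limit of the ratio 1.01), and deg-1 had 3 and 1, too few to check a label. A count of 3 was 0.663 CPM (counts scaled to the library total) in YBT7 and 1.04 CPM in WT. A gene with at least 3 counts in all and a mean normalized count above 5 was taken as measured. By the rule of the study it was called if its absolute log2 fold (YBT7 over WT) exceeded 5 over the square root of the mean, plus 1, which is 5.98-fold at a mean of 10 and 3.77-fold at a mean of 30. "Fell" and "rose" are used only for called genes. Intervals hold 95% and cover only the counting of reads. Positions are those of the deposited table, on WBcel235.

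The sperm genes were lower in YBT7 gonads, and all 22 called genes belonged to the msp, ssp, ssq, sss and nspd families or were gsp-4, with none among the spe and fer genes. Over all 91 members the counts summed to 741 in YBT7 and 1309 in WT, a ratio of 0.377 after scaling (interval 0.344 to 0.413). Of the members, 22 had no count in either library, 21 had counts but stayed under the mean of 5, and 48 were measured. Of these 48, 22 fell and none rose. Over all 8618 measured genes, 1.25% fell and 9.55% rose. The measured members had a median log2 fold of -2.24, against -0.030 for all measured genes, and 43 of 48 lay below 0, as did 51.9% of all measured genes. Apart from spe-39 and spe-44, the measured members had means from 5.31 to 51.2. Of these 46 members 22 fell, against 2.8% of the 3253 genes in that range. The members made up 0.557% of the measured genes and 22 of the 108 genes that fell (20.4%).

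**Figure D1:**
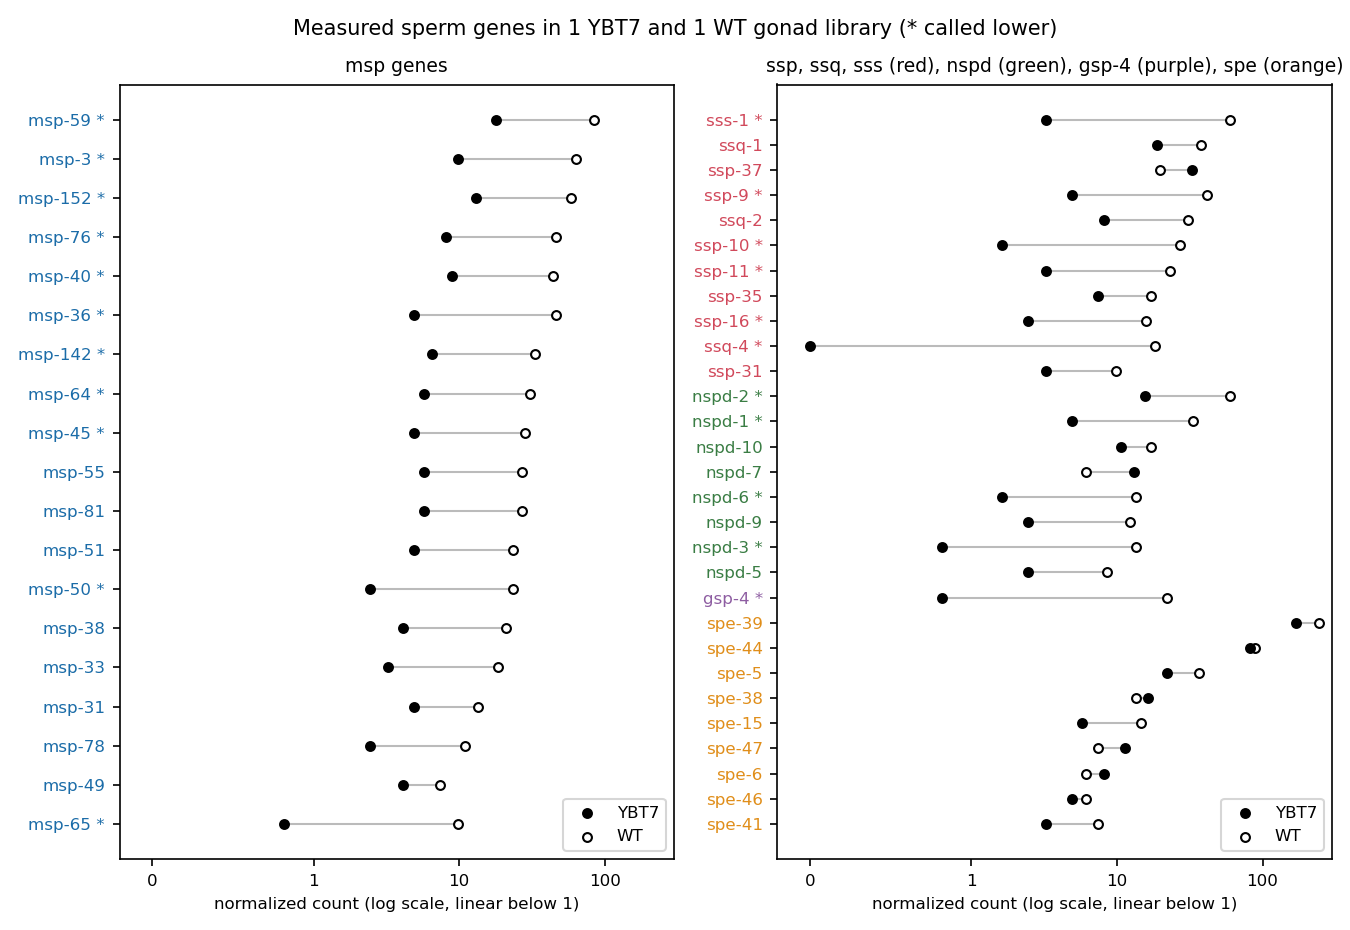
Normalized counts (log scale, linear below 1) of the 48 measured sperm genes in the YBT7 library (filled) and the WT library (open), 1 line a gene. An asterisk marks the 22 genes called lower. All 19 msp genes lie lower in YBT7, with 1 to 22 raw counts there and 6 to 69 in WT, while ssp-37, nspd-7, spe-38, spe-47 and spe-6 lie the other way.

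The major sperm protein genes formed the largest family and moved in the same direction. Of 35 genes, 10 had no count and 6 were under the mean of 5. Each of the 19 measured ones was lower in YBT7, and 11 fell. Raw counts ran from 1 to 22 in YBT7, with a median of 6, and from 6 to 69 in WT, with a median of 22. The sums were 157 counts in YBT7 and 525 in WT, which is 34.7 CPM (exact Poisson interval 29.5 to 40.6) against 183 CPM (167 to 199). After scaling the family was 5.02-fold lower in YBT7 (interval 4.19 to 6.03).

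The most abundant member, msp-59 (WBGene00003452, chromosome IV from 5312690 to 5313146), had 22 counts in YBT7 and 69 in WT, 4.70-fold lower (ratio 0.213, interval 0.125 to 0.348). Next came msp-3, with 12 counts in YBT7 and 52 in WT (ratio 0.154, 0.0747 to 0.292). The msp-152 gene had 16 counts in YBT7 and 48 in WT (ratio 0.222, 0.118 to 0.398). These 3 genes, from chromosomes IV and II, had the most reads of the family in both strains. The msp-76 gene had 10 and 38 counts in YBT7 and WT, and msp-36 had 6 and 38, with log2 folds of -2.51 and -3.25. The msp-40 gene had 11 counts in YBT7 and 36 in WT, a log2 fold of -2.30. All of these genes were lower in YBT7 beyond counting error. In YBT7 and WT, msp-142 had 8 and 27 counts, msp-64 7 and 25, and msp-45 6 and 23, with log2 folds from -2.52 to -2.34. The msp-45 gene overlaps srb-13 on the same strand, so reads of the overlap may have been left out. The msp-50 gene had 3 counts in YBT7 and 19 in WT (ratio 0.105, 0.0200 to 0.358). The rarest measured member, msp-65, had 1 and 8 (ratio 0.0833, 0.00188 to 0.622). The call of msp-65 is lost with a pseudocount of 1.

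The 8 msp genes that were measured but not called had 22 counts or fewer in WT. The msp-55 and msp-81 genes each had 7 counts in YBT7 and 22 in WT, a log2 fold of -2.24 that stopped just short of the limit. Of these genes, msp-49 stood nearest to no change, with 5 counts in YBT7 and 6 in WT (ratio 0.556, 0.134 to 2.18). The ratio of the family sums, 0.199, lay within the interval of every one of the 19 measured genes. None of them differed from the family ratio beyond counting error. Many of these intervals are wide, and each gene is part of the family sum, so differences between the genes could be missed. The 6 genes under the mean of 5 were lower in YBT7 as well, none of them above 4 counts there or above 5 in WT.

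These genes sit in clusters. The 15 msp genes of chromosome II lie from 4785861 to 5810342. Those of chromosome IV form 10 genes from 5055593 to 5316944 and 10 more from 9688982 to 10144175. On chromosome II the sums were 78 counts in YBT7 and 263 in WT (ratio 0.198, interval 0.152 to 0.255). On chromosome IV they were 79 and 262 (ratio 0.201, 0.154 to 0.259). Within chromosome IV the left cluster stood at 0.210 (0.142 to 0.303) and the right one at 0.193 (0.132 to 0.277). The clusters had nearly equal ratios, with intervals that overlapped widely. All 35 msp genes are annotated with 1 exon, and the 19 measured ones share a coding length of 384 bases. The msp genes are known as near-identical copies, and default counting leaves out reads that align to several places, so values of single msp genes are uncertain. Of the 10 genes without a count, 2 are annotated as pseudogenes and 8 as protein coding. Whether reads of these 8 were lost to near-identical copies was not tested.

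In the ssp, ssq and sss families, named as sperm-specific, 6 of 11 measured genes fell. The sums over all 18 members were 110 counts in YBT7 and 259 in WT, 3.53-fold lower (interval 2.82 to 4.46), and the median log2 fold was -2.70. The gene with the most reads in WT was sss-1 (WBGene00006056, chromosome IV from 9892739 to 9893749), with 4 counts in YBT7 and 49 in WT, 18.4-fold lower (ratio 0.0544, 0.0143 to 0.148). The ssq-4 gene (chromosome IV from 5016481 to 5017762) had no count in YBT7 and 15 in WT, at least 7.50-fold lower with YBT7 set to a floor of 3 counts and the WT count taken as it stands. With the counting error of both libraries the ratio could be up to 0.186. These 2 genes were nearly or wholly without reads in YBT7. The ssp-9 gene had 6 counts in YBT7 and 34 in WT (ratio 0.118, 0.0404 to 0.283). The ssp-10 gene had 2 counts in YBT7 and 22 in WT (ratio 0.0606, 0.00691 to 0.247). The ssp-11 gene had 4 and 19 counts in YBT7 and WT, and ssp-16 had 3 and 13, with log2 folds of -2.83 and -2.70. The call of ssp-16 is lost with upper quartile scaling and with a pseudocount of 1.

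These families were less even than the msp genes. The ratio of their sums, 0.283, lay outside the intervals of 4 of the 11 measured genes, sss-1, ssq-4 and ssp-10 below it and ssp-37 above it. The ssp-37 gene (chromosome I from 12561040 to 12561560) had 40 counts in YBT7 and 16 in WT, a ratio of 1.67 (0.913 to 3.19) that was not called. It alone held 40 of the 110 counts of these families in YBT7, and without it their ratio was 0.192. Another pair of ssq genes was not called. The ssq-1 gene had 23 counts in YBT7 and 31 in WT (ratio 0.495, 0.275 to 0.876), and ssq-2 had 10 and 25 (ratio 0.267, 0.114 to 0.575). The ssp-35 gene had 9 counts in YBT7 and 14 in WT, and ssp-31 had 4 and 8. Of the other members, ssq-3 had no count in YBT7 and 3 in WT, which is at the floor and allows no fold.

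The nspd genes code for small nematode-specific peptides. Of 8 measured members 4 fell, and the sums were 65 counts in YBT7 and 140 in WT, 3.23-fold lower (interval 2.39 to 4.41). The nspd-2 gene had 19 counts in YBT7 and 49 in WT (ratio 0.259, 0.144 to 0.447), and nspd-1 had 6 and 27 (ratio 0.148, 0.0500 to 0.366). The rarer nspd-6, with 2 counts in YBT7 and 11 in WT (ratio 0.121, 0.0131 to 0.555), and nspd-3, with 1 and 11 (ratio 0.0606, 0.00141 to 0.417), fell too, although the call of nspd-6 is lost with a pseudocount of 1. The nspd-7 gene went the other way, with 16 counts in YBT7 and 5 in WT (ratio 2.13, 0.747 to 7.45), short of a call. It was the 1 measured member whose interval left out the family ratio of 0.310. In YBT7 and WT, nspd-10 had 13 and 14 counts, nspd-9 3 and 10, and nspd-5 3 and 7, none of them called. With 2 and 6 counts, nspd-4 was under the mean of 5 and could not be called.

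The phosphatase genes gsp-3 and gsp-4 code for sperm forms of protein phosphatase 1, which act in meiosis of sperm-forming cells and in sperm movement. The gsp-4 gene (WBGene00020187, chromosome I from 3838237 to 3839899) had 1 count in YBT7 and 18 in WT (ratio 0.0370, interval 0.000889 to 0.235), a log2 fold of -4.75 that rests on 1 count in YBT7 and is -3.67 with a pseudocount of 1. Because gsp-4 overlaps T03F1.6 on the same strand, reads of the overlap may have been left out. Its paralog gsp-3 had no count in YBT7 and 6 in WT, at least 3-fold lower by the same floor, and under the mean of 5. With the counting error of both libraries its ratio could be up to 0.566. The pair thus had 1 count in YBT7 and 24 in WT. The peel-1 gene, whose product is a toxin that sperm deliver, had 1 count in YBT7 and 3 in WT (ratio 0.222, 0.00423 to 2.77). The snf-10 gene, for a transporter that acts in sperm activation, had no count in either library.

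**Figure D2:**
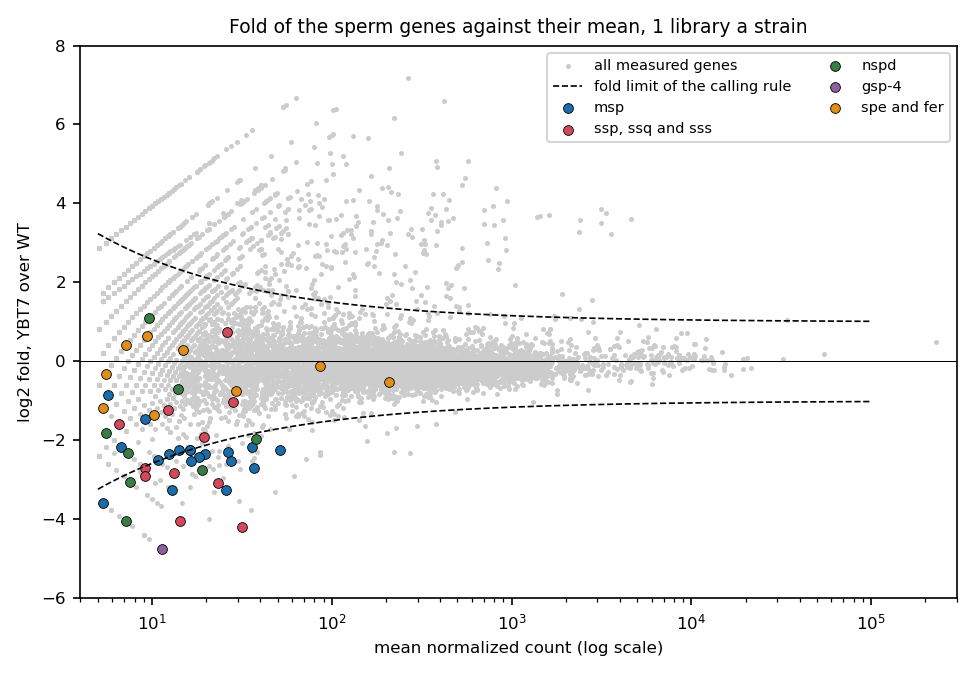
Log2 fold (YBT7 over WT) against the mean normalized count (log scale) for all measured genes (grey) and the 48 measured sperm genes (colour), with the limits of the calling rule as dashed lines and a 0 in 1 library set to 3 counts. Most msp, ssp, ssq, sss and nspd genes, all at means up to 51.2, gather near and below the lower limit, with ssp-37 and nspd-7 above 0, while the 9 spe genes lie between the limits.

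The spe and fer genes differed from these families. No call was made among 9 measured members, whose log2 folds had a median of -0.32. The sums over all 22 members were 407 counts in YBT7 and 358 in WT, 1.32-fold lower after scaling (interval 1.14 to 1.52). The intervals of this ratio, 0.758 (0.656 to 0.876), and of that of the other 69 members, 0.234 (0.206 to 0.266), did not overlap. Most of the counts came from 3 genes. The spe-39 gene (chromosome V) acts in vesicle traffic in many cells and had 209 counts in YBT7 and 200 in WT (ratio 0.697, 0.571 to 0.850). The spe-44 gene (chromosome IV) codes for a transcription regulator that turns on sperm genes. It had 101 counts in YBT7 and 73 in WT, a ratio of 0.922 whose interval (0.676 to 1.26) held 1. The spe-5 gene, for a subunit of the vacuolar proton pump, had 27 counts in YBT7 and 30 in WT (ratio 0.60, 0.343 to 1.04), and overlaps ift-20 on the opposite strand. Without these 3 genes the sums were 70 counts in YBT7 and 55 in WT, a ratio of 0.848 whose interval (0.588 to 1.23) held 1.

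The other spe genes had few reads, and their intervals were wide. In spermatid formation, spe-6, a gene for a casein kinase, had 10 counts in YBT7 and 5 in WT (ratio 1.33, 0.415 to 4.97). The spe-15 gene, for a myosin that sorts cell parts when spermatids bud, had 7 counts in YBT7 and 12 in WT (ratio 0.389, 0.130 to 1.07). Among genes for meeting the oocyte, spe-38, for a membrane protein of the sperm, had 20 counts in YBT7 and 11 in WT (ratio 1.21, 0.554 to 2.80). The spe-41 gene, for a calcium channel of the sperm surface, had 4 and 6 counts in YBT7 and WT (ratio 0.444, 0.0922 to 1.87). Over the 8 genes of organelle and spermatid formation, spe-39 and spe-5 included, the sums were 255 counts in YBT7 and 250 in WT (ratio 0.68, 0.569 to 0.813). The spe-39 gene held 209 and 200 of these counts, so this ratio says little about the rarer genes. Over the 4 genes for meeting the oocyte the sums were 24 counts in YBT7 and 17 in WT (ratio 0.941, 0.485 to 1.87). In YBT7 and WT, spe-47, for a protein with a major sperm protein domain, had 14 and 6 counts, spe-46 had 6 and 5, and spe-11, for a sperm protein that the embryo needs, had 6 and 3. Of the 22 genes 8 had counts under the mean of 5, and 5 had none, spe-9, spe-10, spe-19, spe-29 and spe-42. Among these rare genes spe-8, spe-12 and spe-27 had 1 or 2 counts in WT and none in YBT7, and fer-1 and spe-26 had 1 count in YBT7 and none in WT. Such counts are at or under the floor and allow no fold.

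Members too rare to be called pointed the same way as the measured ones in the msp, ssp, ssq, nspd and gsp genes. The 21 members with counts but a mean of 5 or less summed to 29 counts in YBT7 and 59 in WT (ratio 0.328, interval 0.203 to 0.519), and 18 of them were lower in YBT7. Among all 69 members with a count, 61 were lower in YBT7 after scaling and 8 higher, and of all 15474 genes with a count 45.4% were lower. Some of these members had a single read in all. In the families other than spe and fer, 50 of 52 were lower, all but ssp-37 and nspd-7. By a plainer rule added after the values were seen, an upper limit of the ratio below 1, 32 of the 48 measured members were lower, 10 of them not called, and over all measured genes this held for 24.2%. No member had a lower limit above 1. Of the 91 members 7 are annotated as pseudogenes, and 5 of these had no count.

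No sperm gene of the set is on the X chromosome, the chromosome that YBT7 has in pieces. Chromosome IV holds 40 members, chromosome I 22, chromosome II 17, chromosome V 9 and chromosome III 3. Of the 21 measured on chromosome IV 12 fell (median log2 fold -2.35), as did 7 of 11 on chromosome II (median -2.34). On chromosome I, which holds 11 of the 22 spe and fer genes, 3 of 11 fell, nspd-1, ssp-16 and gsp-4 (median -0.74). Sperm genes were 1.44% of the measured genes of chromosome IV and 12 of the 36 that fell there. On chromosome II they were 0.729% of the measured genes and 7 of the 12 that fell, and on chromosome I 0.669% and 3 of 21.

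Genes that set the fate of sperm had no call. Of 20 genes of sex determination and the switch between sperm and oocyte that were found, 18 were measured (median log2 fold -0.27). Of these 16 lay below 0, and the ratio of sums was 0.840 (0.811 to 0.870). The fem-2 gene, which promotes sperm fate, had 530 counts in YBT7 and 467 in WT, a log2 fold of -0.40. Above 0 lay gld-1 and tra-1. The gld-1 gene, which holds back translation, had 1153 counts in YBT7 and 729 in WT, a log2 fold of 0.076. The tra-1 gene had 45 and 15 (ratio 2, 1.09 to 3.86). Of 5 measured regulators of sperm formation none was called (median -0.28), and 4 lay below 0, all but cpb-1. Here cpb-1, for an RNA-binding protein needed in sperm formation, had 42 counts in YBT7 and 11 in WT (ratio 2.55, 1.29 to 5.48), and elt-1, for a GATA factor, had 11 and 15 (ratio 0.489, 0.203 to 1.14). Among 10 other genes tied to sperm 6 were measured, 4 of them below 0, all but swm-1 and wee-1.3. The msd-4 gene, for a small protein with a major sperm protein domain, fell, with 5 counts in YBT7 and 25 in WT (ratio 0.133, 0.0399 to 0.355). The swm-1 gene, for a protease inhibitor that keeps sperm inactive in males, rose, with 22 and 2 (ratio 7.33, 1.80 to 64.3). The smz-2 gene was not called, with 7 counts in YBT7 and 16 in WT (ratio 0.292, 0.101 to 0.749). On the oocyte side of fertilization and of the signal by major sperm protein, none of 15 measured genes was called (median -0.19). Of these 10 lay below 0, and the ratio of sums was 0.818 (0.802 to 0.834). The egg-1 gene, for a sperm receptor of the oocyte, had 4322 counts in YBT7 and 3200 in WT, a log2 fold of -0.15.

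Markers of other cells moved with the strain as follows. Ratios of the 12 oocyte markers ran from 0.605 (0.573 to 0.639) for rme-2 to 1.53 (1.47 to 1.59) for perm-2, with 7 lower in YBT7 and 5 higher. They had no call and a ratio of sums of 0.985 (0.974 to 0.997). The 12 markers of spermatheca and sheath, the tissue that holds the sperm and its neighbour, had no call among 9 measured and a ratio of 0.967 (0.903 to 1.04). After scaling 6 were lower in YBT7 and 6 higher, among the latter lim-7, with 9 counts in YBT7 and 0 in WT. The fln-1 gene had 708 counts in YBT7 and 491 in WT (ratio 0.961, 0.856 to 1.08). The spermathecal gene sth-1 had 9 and 5 counts in YBT7 and WT, and fkh-6 had 1 and 0. Most reads of this list came from fln-1 and inx-8. Counts of sth-1 and fkh-6 are too few to compare the amount of spermatheca between the libraries. In contrast, 13 of 14 intestine markers rose and their sum was 12.4-fold higher in YBT7 (11079 CPM in YBT7 and 941 CPM in WT), as did 7 of 9 body wall muscle markers (sum 4.30-fold higher). The part of these tissues in the lower sperm gene counts was not tested.

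**Figure D3:**
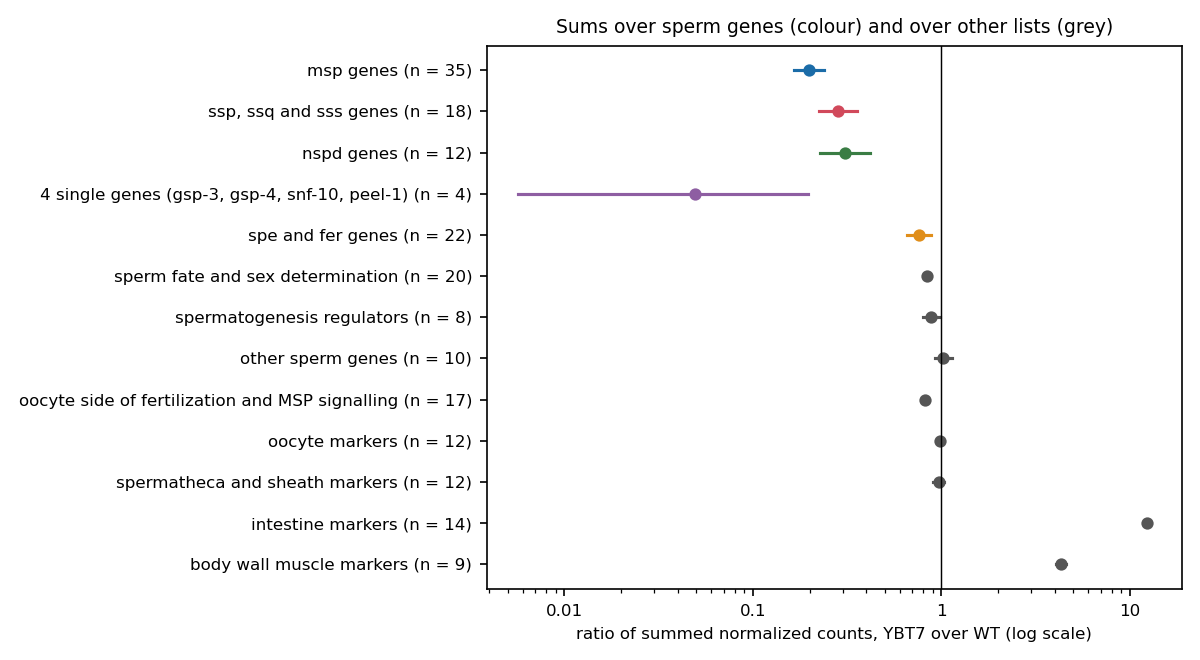
Ratio of summed normalized counts, YBT7 over WT (log scale), for the sperm families (colour) and for other lists (grey), with exact 95% intervals for counting error as bars and the number of genes in brackets. The msp, ssp, ssq, sss and nspd sums lie from 0.199 to 0.310, and spe and fer at 0.758. The 4 single genes lie at 0.0494 on few counts. The sums of the oocyte markers and of the joint spermatheca and sheath list lie near 1. Those of intestine and muscle markers lie at 12.4 and 4.30.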

How the data were processed

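The authors primed RNA of dissected gonads from its poly(A) tail, with molecular identifiers in the primer, and amplified the product by in vitro transcription. Reads were trimmed with cutadapt (version 1.12), aligned to WBcel235 with TopHat2 (version 2.1.1) and counted per gene with htseq-count (version 0.6.0) at default parameters. The deposited table holds raw counts per gene for 1 library a strain, and these counts are what was used. Normalized values, log2 fold changes and the decision for each gene, computed by the authors with DESeq2 (version 1.12.4), stand in the same table and were not used.

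Scaling took the median of ratios among genes that had 3 counts or more, and the size factors were 1.22 for YBT7 and 0.816 for WT. Intervals of a ratio are exact conditional ones and those of CPM exact Poisson ones, at 95%, for counting error only. It is not stated that molecular identifiers were collapsed, so they may be too narrow. Without replicates no test was run. Members were found by symbol, and they and the lists were chosen with earlier results of these data known. The named genes are, in each family, all called members and then those of the highest mean up to 10, and up to 4 genes of each other list. Further members and marker genes in the text were chosen after their values were seen. Exons come from Ensembl release 115 of the same assembly. Alternatives were total count, TMM (edgeR version 4.0.16 in R 4.3.3) and upper quartile scaling, other minimum means, a pseudocount, a fixed limit, and sums without the most abundant member. The calling rule and the intervals were tested on simulated Poisson counts, with large changes set only in genes of higher means than most members have. Variation between preparations was not simulated. Figures were drawn with matplotlib 3.10.9, and values were computed with scipy 1.17.1, pandas 2.3.3 and numpy 2.4.6 under Python 3.11.15.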

Additional observations from a re-analysis of the deposited data

How the results depend on the processing

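The count of members that fell was 22 with TMM scaling, 21 with upper quartile scaling, 26 with total count scaling, 19 with a pseudocount of 1, 17 with a minimum mean of 10 and 24 with no minimum mean. A fixed 2-fold limit gave 37 that fell and 1 that rose, nspd-7. Under every other listed setting no member rose. The 22 members were all among those called with TMM, total counts, no minimum mean and the fixed limit. The upper quartile lost ssp-16, and the pseudocount lost ssp-16, msp-65 and nspd-6, whose log2 folds were then -2.29, -2.57 and -2.46. Total counts added msp-33, msp-38, msp-55 and msp-81. No minimum mean added gsp-3 and ssq-3, which had no count in YBT7. These calls arise only because a 0 was left without a floor. At the floor of 3 counts neither gene reaches its limit. Of 88 values of the 22 called members under other scalings or the pseudocount, 84 kept the call and 4 lost it, with no change of sign, and none of 84 values of 21 uncalled named members gained one. Total counts moved the median of all measured genes to -0.10, and 97 to 118 of them fell under the scalings. The median of the measured members ran from -2.31 to -2.06 over its alternatives. Without its most abundant member the ratio of summed counts was 0.320 for all members (without spe-39) and 0.192 for the ssp, ssq and sss genes (without ssp-37). The rule that the upper limit lie below 1 was added after the values were seen. In YBT7, 36 of the 48 measured members had 12 counts or fewer, so depth limits single genes, and no variation between animals was measured. No paired analysis was possible because each strain has 1 library.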

Other observations

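The spans of the msp clusters were read after the calls were known, and they also hold genes that are no members of the sperm set. In the left span of chromosome IV, 4 of 22 measured neighbours fell in YBT7, ZK354.2 (1 count in YBT7 and 12 in WT), ZK354.3 (3 and 18), Y59E9AL.3 (1 and 10) and Y59E9AL.6 (6 and 28). In the right span 2 of 51 fell, C04G2.9 with 11 counts in YBT7 and 72 in WT (ratio 0.102, interval 0.0487 to 0.193) and gipc-2 with 4 and 19 (ratio 0.140, 0.0347 to 0.422). In the span of chromosome II 1 of 144 fell, acdh-8, a gene for an acyl-CoA dehydrogenase, with 1 count in YBT7 and 14 in WT. Over the 3 spans 7 of 217 neighbours fell (3.23%), and 79 of 8353 measured genes outside them that are no members (0.946%). The median log2 fold of the neighbours was -0.11, and -0.023 outside. Sequence shared between these neighbours and the sperm families was not looked at.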
